A study of Homo sapiens with 12 samples.

Results

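RNA from T24 cells, a human bladder cancer line, was examined for 10 genes that code for angiogenic factors and their co-receptors. The genes were VEGFA, VEGFB, VEGFC, PGF, ANGPT1, ANGPTL4, ESM1, EDN1, NRP1 and NRP2, found by gene name among the 60504 genes of the deposited tables, and each name matched a single identifier. In the knockout comparison, 2 libraries carried the label knockout U11 and 2 were untreated controls. According to the study's methods, the knockout cells came from CRISPR/Cas9 with a pair of guide RNAs followed by single-cell cloning. The overexpression comparison held 6 libraries labelled overexpression U11 and 2 untreated controls. The overexpressing cells were stable clones of T24 that carried a U11 plasmid, pcDNA-U11, and their library names hold 3 line labels, 79, 86 and 87, with 2 libraries each. A clone can differ from its parent in ways other than its U11 level, so clone and treatment cannot be told apart here. The labels do not say whether libraries of a group came from separate cultures, and P values therefore measure only the spread between these libraries, which may be technical.

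U11, a small nuclear RNA of the minor spliceosome, did not follow every label. Its level, in TPM (transcript abundance corrected for gene length and scaled to a common total per library), was 21.4 and 23.8 in the knockout controls and 31.6 and 37.4 under the knockout label. Among the other 8 libraries it was 0.033 and 0.623 TPM in the controls, 0.183 and 0.412 in line 79, 3.98 and 3.72 in line 86, and 61.9 and 53.6 in line 87. These values are sums over both gene entries of U11. Only ENSG00000274978 was above 0 in the knockout comparison, while ENSG00000270103 held most of the level in lines 86 and 87. In these libraries U11 was thus higher, not lower, under the knockout label, and line 79 lay within the range of its controls. Line 79 and its controls were all below 1 TPM, and how well these libraries captured U11 was not tested. The study itself reported by quantitative PCR that U11 was lower in the knockout cells and higher in the overexpressing cells. The library types also differed between the comparisons, since the 10 most abundant genes took 45.5% to 49.6% of all TPM in the 4 libraries of the knockout comparison but 7.06% to 7.56% in the other 8. Levels were therefore compared only within a comparison. The depth was 9.07 to 15.33 gigabases of aligned sequence per library. KRT7, KRT8 and KRT18 of simple epithelia were abundant (269.7 TPM or more in every library), while the urothelial markers UPK1A, UPK1B, UPK2, UPK3A and KRT20 were at or below 0.437 TPM. The urothelial transcription factors PPARG (18.9 to 54.5 TPM), FOXA1 (8.41 to 50.9 TPM) and GATA3 (2.38 to 17.4 TPM) were present. The epithelial markers CDH1 and KRT5 were at or below 0.155 TPM, and EPCAM was at 0.0904 to 2.32 TPM.

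New vessels grow when endothelial cells receive signals from ligands of the VEGF family, which act through receptor tyrosine kinases (FLT1, KDR and FLT4) with neuropilins as co-receptors. Angiopoietins act on a separate endothelial receptor kinase, TEK, and endothelin-1, the product of EDN1, acts on G protein-coupled receptors of vessel walls and of some tumours. Tumour cells secrete many of these ligands without having the receptors, and hypoxia is a known inducer of several of them.

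The promoters of ANGPTL4, EDN1 and ESM1 are shown because these 3 genes had the largest log2 fold changes of the 10 in line 79, the line with the most calls, a choice made after their values were seen. Sequences are from RefSeq on GRCh38.p14, read in the direction of transcription and ending just before the annotated start or, for ESM1, 14 bases upstream of it. Capitals mark TATAAA (the TATA box), ACGTG or its reverse complement CACGT (the core of the hypoxia response element), and TTATC, the reverse complement of the GATA factor motif GATAA. The ANGPTL4 window is chr19:8363905-8364154 on the plus strand, the EDN1 window is chr6:12290111-12290360 on the plus strand, and the ESM1 stretch is chr5:54985607-54985636 on the minus strand.
ANGPTL4: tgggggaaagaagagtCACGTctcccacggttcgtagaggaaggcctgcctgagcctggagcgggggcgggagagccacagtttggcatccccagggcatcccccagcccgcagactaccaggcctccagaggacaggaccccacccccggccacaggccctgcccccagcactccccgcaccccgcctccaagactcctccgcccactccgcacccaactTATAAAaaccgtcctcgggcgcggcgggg
EDN1: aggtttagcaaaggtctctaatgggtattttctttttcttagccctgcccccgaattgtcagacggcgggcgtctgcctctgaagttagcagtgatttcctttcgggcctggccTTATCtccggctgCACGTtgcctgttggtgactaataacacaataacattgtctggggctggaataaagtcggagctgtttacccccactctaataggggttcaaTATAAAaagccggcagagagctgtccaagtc
ESM1: gcaacccagtgTATAAAactcataaACGTG
TATAAA lay on the gene strand 29 bases before the start of ANGPTL4, 31 before that of EDN1 and 32 before that of ESM1. Of 35114 RefSeq promoter windows of this length, 6.8% held TATAAA on the gene strand and 2.63% held it there within the last 50 bases. ACGTG was found on either strand at position -234 of ANGPTL4, -123 of EDN1 and -18 of ESM1, and 18.5% of all windows held it. Neither motif was present in the windows of VEGFB, VEGFC, PGF and NRP2, the other members whose promoters were examined. The promoters of VEGFA, ANGPT1 and NRP1 were not examined, so the motifs cannot be compared over all 10 members. The AP-1 motif TGANTCA (6.6% of all windows) and the TEAD motif GGAATG (11.9%) were not present in any of the 7 windows. The related hypoxia core GCGTG occurred at -61 of VEGFB, -59 of VEGFC and -153 of ESM1, and in 32.2% of all windows. GATAA lay on the opposite strand at -136 of EDN1, and 20.4% of all windows held it on either strand. Matches of this kind describe the sequence only. In the deposited tables the gene ESM1 begins 37078 bases upstream of the RefSeq start used here and ANGPTL4 begins 866 bases upstream, while EDN1 begins 2 bases downstream.

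In the untreated controls the secreted ligands VEGFB, VEGFC and EDN1 were the most abundant members. In the overexpression controls the mean level was 67.5 ± 10.9 TPM for VEGFB (SD, n = 2), 56.3 ± 0.403 for VEGFC and 47.2 ± 2.48 for EDN1. NRP1 (27.5 ± 1.58 TPM), VEGFA (27.0 ± 1.47), PGF (17.4 ± 1.66), ESM1 (15.7 ± 0.661) and NRP2 (5.71 ± 0.654) followed, and ANGPT1 (1.36 ± 0.1) and ANGPTL4 (1.26 ± 0.214) were close to the lower limit of 1 TPM used for testing. The values of NRP1 and VEGFA overlapped, as did those of ANGPT1 and ANGPTL4, while all other neighbours in this order were apart. In the knockout controls VEGFB, EDN1 and VEGFC again headed the order, and only ESM1 and NRP1 overlapped with a neighbour.

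**Figure D1:**
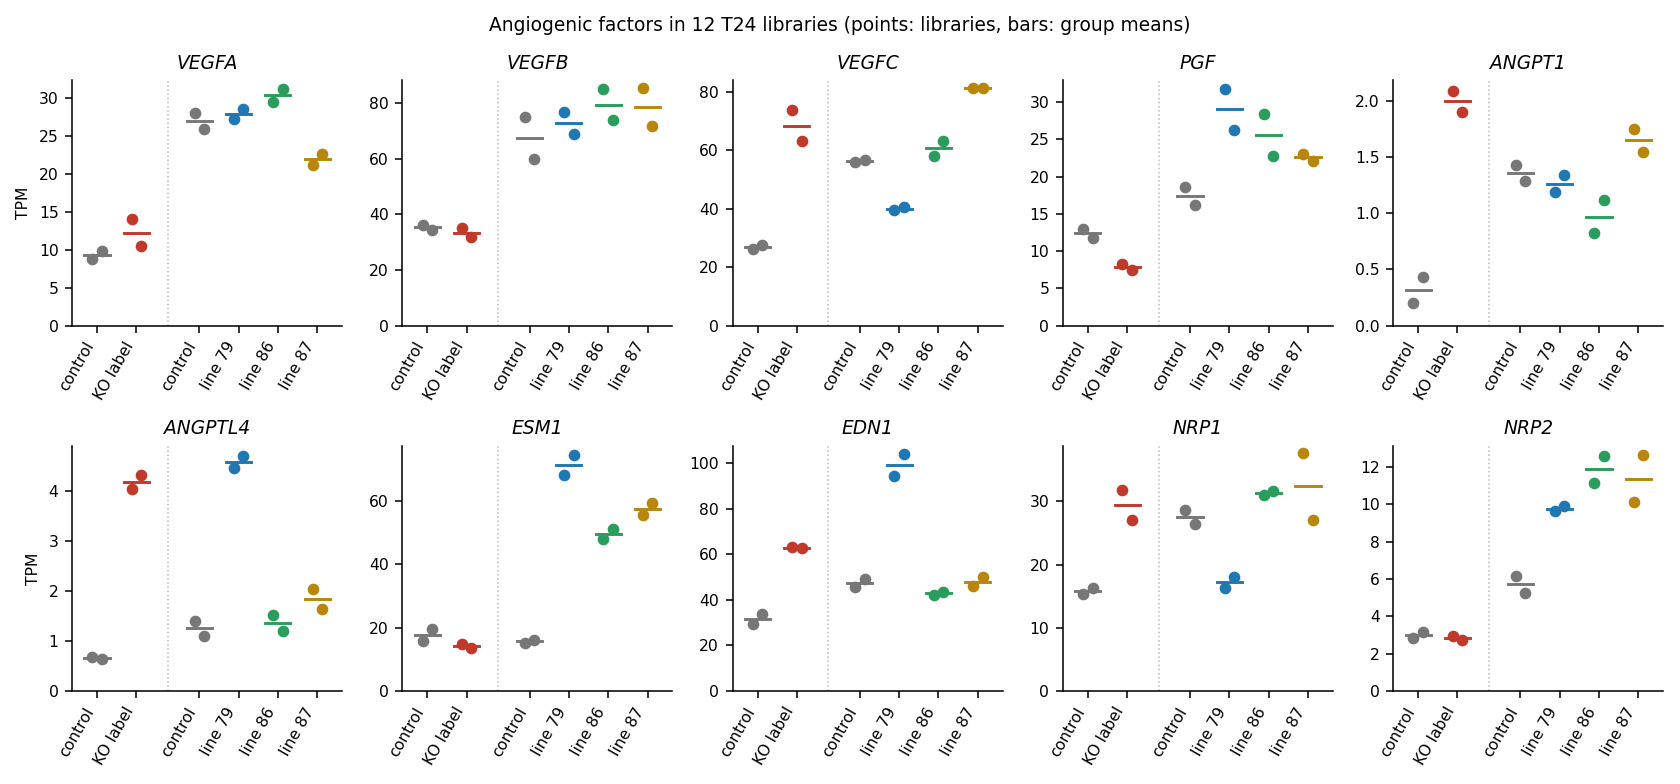
Level of each angiogenic factor in TPM (vertical axes, linear and starting at 0) in the 12 T24 libraries, with points for libraries and bars for group means. The dotted line separates the knockout comparison (control and the libraries labelled U11 knockout, KO label) from the overexpression comparison (control and lines 79, 86 and 87). ESM1 and NRP2 stand above their controls in all 6 overexpression libraries, and EDN1 and ANGPTL4 stand above them in line 79 and under the knockout label.

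Under the knockout label, 6 of the 10 members were called by the study's thresholds (an unadjusted P under 0.05 with 1.5-fold or more), against 11.8% of all 14356 genes tested. VEGFC, ANGPT1, ANGPTL4, EDN1 and NRP1 rose and PGF fell (8.61% of all genes rose and 3.15% fell). The 5 rises also had an adjusted P under 0.05 (4.78% of all genes rose at that threshold). All 10 members passed the filter on low values, but ANGPT1 and ANGPTL4 only through the labelled libraries, where they are high, so nothing is read from the count of 6 against these shares. Among the 8 members with at least 1 TPM in every library, VEGFC, EDN1 and NRP1 rose and PGF fell. In bulk RNA, more expressing cells and more RNA per cell cannot be told apart. The median over the 10 members, 0.60 on the log2 scale, includes ANGPT1 and ANGPTL4, so nothing is read from it either. The median over all genes tested was 0.11, since 1236 genes rose and 452 fell. With median ratio scaling these counts were 769 and 778 and the median of all genes was -0.02, so each difference is also given relative to the median of all genes. The same 6 members were called with that scaling.

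With U11 overexpression, 2 of the 10 members, ESM1 and NRP2, passed in the comparison of all 6 libraries with the controls, against 1.93% of 15768 genes tested, and both rose, against 0.767%. Without line 79, whose measured U11 level lay within the range of its controls, the same 2 members were called. Their values were 1.70 for ESM1 and 0.91 for NRP2 on the log2 scale. This alternative was chosen after seeing the data. ESM1 alone also had an adjusted P under 0.05, against 0.0507% of all genes. Taken by line, 6 members were called in line 79 (7.95% of all genes), 5 of them higher (2.43%) and 1 lower (5.52%). In line 86 the 2 called members were higher (3.6% of all genes were called and 1.59% rose), as were the 2 in line 87 (5.13% and 2.08%). The lines share their 2 control libraries, so their values are given side by side and the difference between lines was tested by itself. By that test (a moderated F test, adjusted P under 0.05 and a range of at least 1.5-fold), VEGFC, ANGPTL4, EDN1 and NRP1 differed between the lines, 4 of 10 members against 10.8% of all genes. P values here and in the following are from limma on log2(TPM + 1), adjusted by Benjamini-Hochberg over all genes tested, and log2 fold changes are on that scale, which understates changes of genes near 1 TPM.

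**Figure D2:**
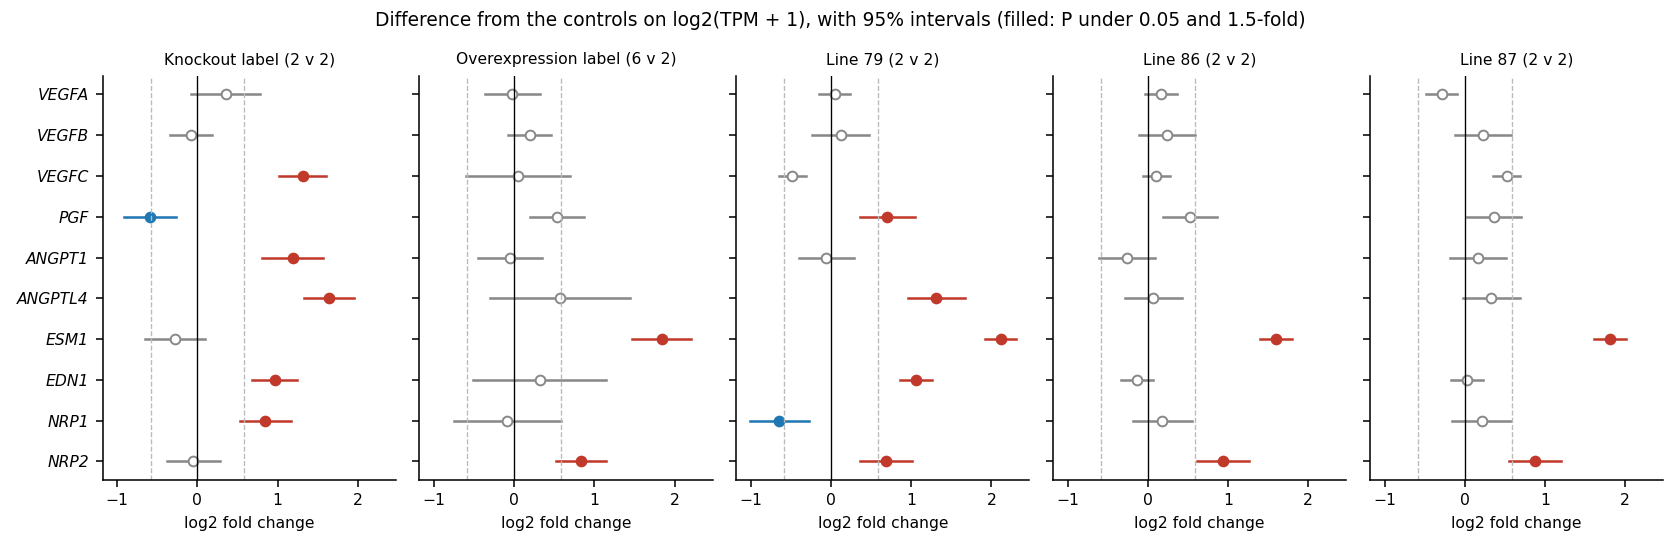
Difference of each angiogenic factor from the controls as log2 fold change on log2(TPM + 1) (horizontal axis), with 95% confidence intervals, in 5 comparisons. Filled points passed unadjusted P under 0.05 and 1.5-fold (dashed lines), red for higher and blue for lower. The largest value under the knockout label is that of ANGPTL4 (1.64), and in each comparison of the overexpression libraries that of ESM1 (1.84 for all, 2.11, 1.60 and 1.81 for lines 79, 86 and 87).

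Among the VEGF family ligands, VEGFC, which acts chiefly on lymphatic endothelium, varied most. The gene (ENSG00000150630, chr4:176683538-176792727 on hg38, minus strand) was at 26.2 and 27.6 TPM in the knockout controls and at 73.7 and 63.1 TPM under the knockout label. Both labelled libraries lay above both controls, with a ratio of the means of 2.54. The log2 fold change was 1.31 (SE 0.115, adjusted P = 0.0128 by limma), or 1.20 above the median of all genes. In the overexpression comparison VEGFC was at 56.0 and 56.6 TPM in the controls, 39.5 and 40.5 in line 79, 58.0 and 63.2 in line 86, and 81.1 and 81.2 in line 87. Line 79 lay below the controls and line 87 above them, with no overlap between any of these groups. The differences of line 79 (log2 fold change -0.48, adjusted P = 0.0092 by limma) and line 87 (0.52, adjusted P = 0.0141) were both smaller than the 1.5-fold threshold, but the difference between these lines was 1.00 on the log2 scale (adjusted P = 0.00116). Pooled over the lines, VEGFC did not pass (0.05, 95% interval -0.60 to 0.70).

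VEGFA (ENSG00000112715, chr6:43770184-43786487, plus strand), the main ligand of KDR and a factor induced by hypoxia, did not pass in any comparison. It was at 8.86 and 9.81 TPM in the knockout controls and at 14.0 and 10.6 TPM under the knockout label, where the 2 labelled libraries differed more than the controls did. The log2 fold change was 0.35 (95% interval -0.08 to 0.78, adjusted P = 0.233 by limma). In the overexpression controls it was at 28.0 and 26.0 TPM, and in lines 79, 86 and 87 at 27.3 and 28.5, 29.5 and 31.2, and 21.2 and 22.6 TPM. Line 87 lay below the controls and line 86 above them. The difference between these lines, 0.45 on the log2 scale, had an adjusted P of 0.0253 by limma and was under the 1.5-fold threshold.

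VEGFB (ENSG00000173511, chr11:64234538-64238793, plus strand), a ligand of FLT1, had the highest mean level of the 10 members in both control groups and in line 86, and was not called in any comparison. It was at 36.1 and 34.5 TPM in the knockout controls and at 35.0 and 31.9 TPM under the knockout label, so that the groups overlapped (log2 fold change -0.08, 95% interval -0.34 to 0.18). In the first library series of the overexpression comparison VEGFB was at 75.1 TPM in the control and at 76.96, 85.2 and 85.6 TPM in lines 79, 86 and 87, and in the second at 59.8 TPM in the control and at 68.8, 73.8 and 72.0 TPM. Each line lay above the control of its own series, while the second series was lower throughout, so that the lines overlapped the controls when the series were joined. The pooled log2 fold change was 0.19 (95% interval -0.08 to 0.46, unadjusted P = 0.138 by limma), and with the library series as a block its unadjusted P was 0.0368 and its adjusted P 0.789, at under 1.5-fold in both fits.

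PGF (ENSG00000119630, chr14:74941834-74955784, minus strand) codes for placental growth factor, a further FLT1 ligand. It was lower under the knockout label and higher in line 79. It was at 13.0 and 11.7 TPM in the knockout controls and at 8.27 and 7.45 TPM under the knockout label, a ratio of 0.635. The fall was -0.59 on the log2 scale (SE 0.124, unadjusted P = 0.00529 and adjusted P = 0.0572 by limma), or -0.70 relative to the median of all genes. It no longer reached 1.5-fold without control replicate 1 (-0.52), and also not without labelled replicate 2. PGF in the overexpression comparison was different, with controls at 18.6 and 16.2 TPM, line 79 at 31.7 and 26.3, line 86 at 28.5 and 22.8, and line 87 at 23.0 and 22.1 TPM. All 6 overexpression libraries lay above both controls. PGF passed in line 79 (0.70, SE 0.141, adjusted P = 0.0293 by limma) and not without replicate 1 of that line (0.57). The pooled difference of 0.53 (95% interval 0.20 to 0.86, unadjusted P = 0.00591) and that of line 86 (0.53) were under the fold threshold. Without control replicate 3 both passed (0.62 pooled and 0.62 for line 86), as did line 86 without its replicate 3 (0.68).

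ANGPT1 and ANGPTL4 were the least abundant members. ANGPT1 (ENSG00000154188), the agonist of TEK, was at 0.199 and 0.431 TPM in the knockout controls and at 2.09 and 1.90 TPM under the knockout label. The labelled libraries were clearly above the controls, which were below 1 TPM. The log2 fold change was 1.19 (SE 0.147, adjusted P = 0.0226 by limma), or 1.08 above the median of all genes. In the controls of the overexpression comparison ANGPT1 was at 1.43 and 1.29 TPM, and in lines 79, 86 and 87 at 1.19 and 1.34, 0.822 and 1.12, and 1.75 and 1.54 TPM. Line 86 lay below the controls and line 87 above them, but none of the lines was called, the largest difference being -0.26 in line 86 (95% interval -0.61 to 0.08).

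ANGPTL4 (ENSG00000167772, chr19:8363289-8374373, plus strand) is a secreted inhibitor of lipoprotein lipase that also acts on vessels, and PPAR factors and hypoxia are its known inducers. It was at 0.684 and 0.636 TPM in the knockout controls and at 4.04 and 4.32 TPM under the knockout label, a ratio of the means of 6.33. Its log2 fold change of 1.64 (SE 0.122, adjusted P = 0.00945 by limma), or 1.53 above the median of all genes, was the largest of the 10 members. Set against the overexpression controls (1.41 and 1.11 TPM), it was at 4.47 and 4.70 TPM in line 79, 1.52 and 1.20 in line 86, and 2.04 and 1.63 in line 87. Line 79 stood apart from all other libraries, and line 86 overlapped the controls. The log2 fold change was 1.31 in line 79 (SE 0.148, adjusted P = 0.00448 by limma), 0.06 in line 86 and 0.33 in line 87. Lines 79 and 86 differed by 1.25 (adjusted P = 0.00602). The entry overlaps ELAVL1 and RAB11B-AS1 on the opposite strand, at up to 57.6 TPM, and the sources used here do not say that reads were assigned by strand, so reads of these genes cannot be told apart where they overlap. ANGPT1 and ANGPTL4 could not be tested without either labelled library, because fewer than 2 of the remaining libraries reached 1 TPM.

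ESM1 (ENSG00000164283, chr5:54977864-55022671, minus strand) codes for endocan, a proteoglycan known from activated and tumour endothelium. It was at 15.2 and 16.2 TPM in the overexpression controls, 68.1 and 74.4 in line 79, 48.1 and 51.1 in line 86, and 55.7 and 59.3 in line 87. Every overexpression library was far above both controls, and the 3 lines did not overlap each other. The ratio of the means was 3.79 over the 6 libraries. The pooled log2 fold change was 1.84 (SE 0.161, adjusted P = 0.00323 by limma), and it was 1.83 and 1.85 within the first and the second library series, each of which holds 1 library of every line and 1 control. With the mean of each line in place of its libraries, ESM1 was still called (unadjusted P = 3.64e-05) but its adjusted P was 0.0794. By line it was 2.11 in line 79 (adjusted P = 1.16e-04 by limma), 1.60 in line 86 (0.00138) and 1.81 in line 87 (3.18e-04). The range between lines 79 and 86 was 0.51 (adjusted P = 0.0183), under the 1.5-fold threshold. Under the knockout label ESM1 did not pass, with 15.7 and 19.5 TPM in the controls and 14.7 and 13.7 TPM in the labelled libraries (log2 fold change -0.28, 95% interval -0.65 to 0.09). The order of ESM1 levels, with line 79 highest and line 86 lowest, was not that of U11, which was highest in line 87 and lowest in line 79. U11 was below 1 TPM in line 79, and a relation between ESM1 and U11 was not tested.

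EDN1 (ENSG00000078401, chr6:12290363-12297194, plus strand) codes for the precursor of endothelin-1, a vasoconstrictor peptide. Its level was 29.4 and 34.0 TPM in the knockout controls and 63.0 and 62.5 TPM under the knockout label, a ratio of 1.98. The log2 fold change was 0.97 (SE 0.108, adjusted P = 0.0202 by limma), or 0.86 above the median of all genes. In the overexpression comparison EDN1 was at 45.4 and 48.9 TPM in the controls, 94.4 and 104 in line 79, 42.0 and 43.6 in line 86, and 46.2 and 49.9 in line 87. Line 79 alone stood apart, line 86 lay just below the controls and line 87 overlapped them. In line 79 the log2 fold change was 1.05 (SE 0.083, adjusted P = 0.00119 by limma), and lines 79 and 86 differed by 1.19 (adjusted P = 9.13e-04).

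The neuropilins bind VEGF ligands and class 3 semaphorins and present them to kinases and plexins. NRP1 (ENSG00000099250, chr10:33177492-33336262, minus strand) was at 15.4 and 16.4 TPM in the knockout controls and at 31.7 and 27.1 TPM under the knockout label. It rose by 0.85 on the log2 scale (SE 0.122, adjusted P = 0.0296 by limma), or 0.74 above the median of all genes. In the overexpression comparison it was at 28.7 and 26.4 TPM in the controls, 16.3 and 18.1 in line 79, 31.0 and 31.6 in line 86, and 37.7 and 27.0 in line 87. Line 79 lay below every other library, and the 2 libraries of line 87 differed more than those of any other group. NRP1 fell in line 79 by 0.65 on the log2 scale (SE 0.154, adjusted P = 0.0485 by limma), and not past 1.5-fold without replicate 1 of that line (-0.58). With the library series as a block its adjusted P was 0.0564, and with median ratio scaling it was 0.0634. The difference between lines 87 and 79 was 0.86 (adjusted P = 0.0186), and it missed the adjusted threshold when either library of line 79 or of line 86 was left out (0.79 to 0.93 on the log2 scale).

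NRP2 (ENSG00000118257, chr2:205681990-205798133, plus strand), a co-receptor for VEGFC, was at 6.17 and 5.25 TPM in the overexpression controls, 9.63 and 9.89 in line 79, 11.2 and 12.6 in line 86, and 10.1 and 12.6 in line 87. All 6 overexpression libraries were above both controls, with lines 86 and 87 overlapping and line 79 below them. The pooled log2 fold change was 0.83 (SE 0.136, unadjusted P = 1.85e-04, adjusted P = 0.0942 by limma). It was 0.65 within the first library series and 1.02 within the second. By line it was 0.68 in line 79, 0.94 in line 86 and 0.88 in line 87 (adjusted P = 0.0276, 0.0278 and 0.0244 by limma), and line 79 without control replicate 4 came to 0.58, short of the threshold. The lines were not distinguished by the F test (range 0.26, adjusted P = 0.401). With the mean of each line in place of its libraries, NRP2 was still called in the pooled test (unadjusted P = 0.00115 by limma), but its adjusted P was 0.355. Under the knockout label NRP2 was at 2.97 and 2.74 TPM, within or just below the range of 2.82 and 3.16 in its controls (log2 fold change -0.05, 95% interval -0.38 to 0.28).

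Within the overexpression comparison, the genes most like each called member were found by the root mean square difference of log2(TPM + 1), each gene centred on its own mean, over the 8 libraries and 11166 genes with a mean of at least 5 TPM. ESM1 was nearest to BCL2A1 (0.147) and CXCL8 (0.252), the latter at 111 and 104 TPM in the controls and between 212 and 350 TPM in the overexpression libraries. ANGPTL4 was nearest to ADGRG1 (0.115) and to EDN1 (0.172), and EDN1 to MT1X (0.108) and ID1 (0.117), a target of BMP signalling. VEGFC was nearest to TRIM34 (0.0665) and CD9 (0.0797), NRP1 to STAG3L2 (0.12) and LIMK1 (0.124), and NRP2 to RP11-527N22.2 (0.0834) and XDH (0.098). These likenesses rest on 4 groups of 2 libraries with shared controls and describe the pattern only.

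The receptors for these ligands were mostly not detected in the same cells. FLT1, KDR, FLT4 and TEK stayed at or below 0.200 TPM in all 12 libraries, and EDNRB at or below 0.0305 TPM. EDNRA, the endothelin A receptor, was at 3.01 to 8.68 TPM, and ITGAV, an integrin subunit, was at 37.0 to 62.6 TPM. The list of 9 receptors held 3 genes that could be tested, and ITGB3, the beta subunit paired with ITGAV, was the only one called. It rose under the knockout label from a mean of 9.18 to 16.3 TPM (log2 fold change 0.76, adjusted P = 0.035 by limma) and fell in line 87 from 18.5 to 11.5 TPM (-0.64, adjusted P = 0.0336). The 10 other ligands of these families, VEGFD, ANGPT2 and EDN2 among them, were all below the limit for testing, with 0.652 TPM the highest value. ECE1, which cuts the endothelin precursor to its active form, was at 41.7 to 128 TPM and was not called in any comparison. Of the 4 endothelin processing genes, FURIN rose under the knockout label (0.66, adjusted P = 0.0364) but not with median ratio scaling (0.52), and in line 87 FURIN fell (-0.70, adjusted P = 0.0263) and MME, an enzyme that degrades endothelin, rose (0.93, adjusted P = 0.0133).

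**Figure D3:**
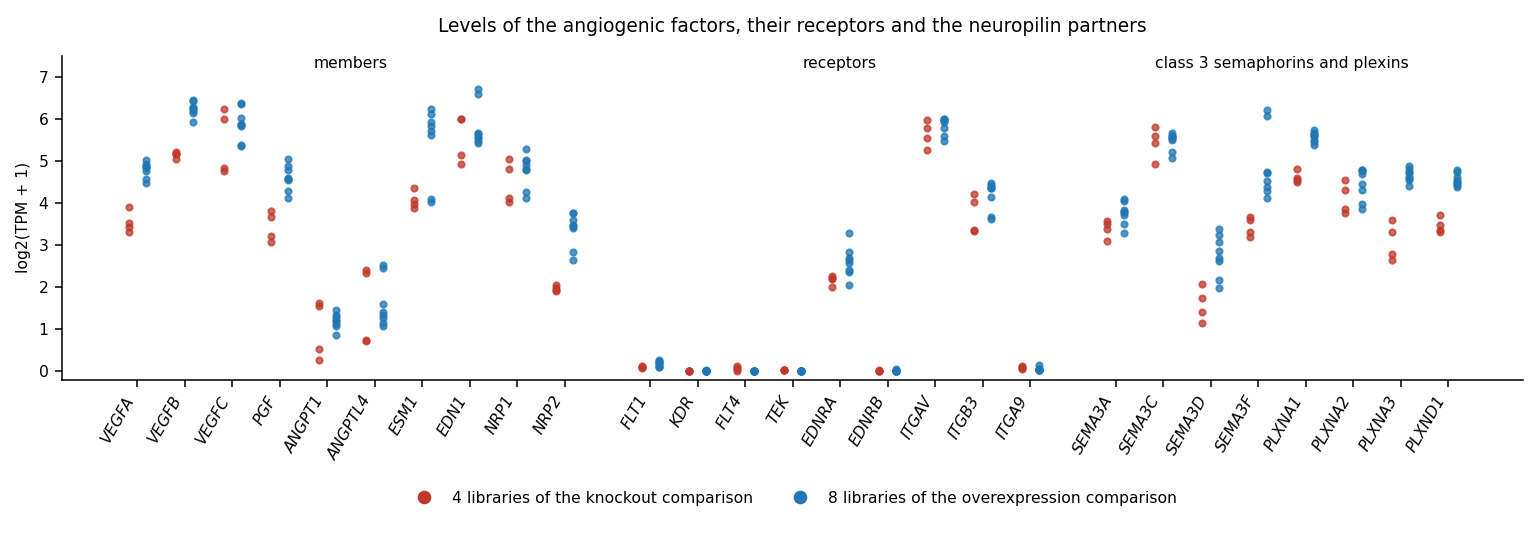
Levels as log2(TPM + 1) (vertical axis) of the 10 angiogenic factors, of 9 receptors and of the detected class 3 semaphorins and plexins, with a point for each of the 4 libraries of the knockout comparison (red) and the 8 of the overexpression comparison (blue). FLT1, KDR, FLT4, TEK and EDNRB lie near 0, while EDNRA, ITGAV, ITGB3 and the plexins are present.

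The semaphorins and plexins, partners of the neuropilins, formed a list of 12 genes, of which 8 could be tested. Over all genes, 11.8% were called under the knockout label, 1.93% over all lines, and 7.95%, 3.6% and 5.13% in lines 79, 86 and 87. In line 79, SEMA3F, a ligand of NRP2, rose from a mean of 21.0 to 69.5 TPM (1.68, adjusted P = 4.40e-04 by limma), and PLXNA2 rose and SEMA3D fell. SEMA3D also fell in line 87 (-0.64, adjusted P = 0.0488) and PLXNA2 also rose there (0.82, adjusted P = 0.00698), while none of the 8 passed both thresholds in line 86 (3 had an unadjusted P under 0.05 by limma). Over all lines PLXNA2 rose (0.71) and SEMA3D fell (-0.74), with adjusted P of 0.237 and 0.73 by limma. Under the knockout label PLXNA2 (0.61) and PLXNA3 (0.73) rose and SEMA3D (-0.61) fell, all 3 with an adjusted P above 0.05, and PLXNA2 did not pass with median ratio scaling (0.47).

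Regulators and targets of the hypoxia response were counted separately. Of 7 hypoxia regulators tested, only HIF1A was called under the knockout label, from a mean of 97.1 to 158 TPM (0.69, adjusted P = 0.0243 by limma), and it was not called with median ratio scaling (0.55). None of the 7 was called by limma in the pooled overexpression comparison or in lines 79, 86 and 87, where 0, 3, 2 and 2 had an unadjusted P under 0.05 at a smaller fold change. Of 13 hypoxia-induced genes tested, 3 were called under the knockout label and 3 in line 79, and 7 had an unadjusted P under 0.05 by limma in each (11.8% and 7.95% of all genes were called). NDRG1 (0.83) and BHLHE40 (1.56) rose under the knockout label, whereas DDIT4 fell from 38.1 to 11.02 TPM (-1.70, adjusted P = 0.00644 by limma). In line 79 the same 3 genes were called and all rose, with log2 fold changes of 1.23 for NDRG1, 1.11 for BHLHE40 and 0.67 for DDIT4. In line 86 DDIT4 alone was called (1.17), while 5 of the 13 had an unadjusted P under 0.05 by limma, BHLHE40 (0.44, adjusted P = 0.0473) and NDRG1 (0.36, adjusted P = 0.195) among them at under 1.5-fold. BHLHE40 was the only gene of the list called over all lines (0.66, adjusted P = 0.654 by limma), and none was called in line 87, where 3 had an unadjusted P under 0.05 by limma. The list's median log2 fold change was 0.12 under the knockout label and 0.12 in line 79, beside 0.11 and -0.03 over all genes. The glycolytic targets SLC2A1, PGK1 and LDHA were not called in any of these comparisons.

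PPAR target genes were listed because ANGPTL4 is a member of that set. Of 6 tested, only FABP4, a fatty acid binding protein, was called. It fell from 12.1 to 1.39 TPM under the knockout label (-2.45, adjusted P = 0.00745 by limma), the opposite of ANGPTL4, and rose in line 86 (1.47, adjusted P = 0.0387) and, at an unadjusted P, in line 87 (0.69, adjusted P = 0.187). In line 79, where ANGPTL4 rose, FABP4 fell (-0.61) and did not pass with median ratio scaling. PLIN2 and CPT1A, other targets of PPAR factors, were not called.

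Among other angiogenic growth factors, 7 of 13 were called under the knockout label and 6 of 13 in line 79 (11.8% and 7.95% of all genes were called). CCN2, a matricellular protein induced by YAP and TEAD, rose from 140 to 445 TPM (1.66, adjusted P = 0.00644 by limma) under the knockout label, and FGF2 from 77.01 to 186 TPM (1.28, adjusted P = 0.0228). FGF1 (0.95), PTN (1.25) and CCN1 (0.71) also rose there, although CCN1 did not pass with median ratio scaling (0.56), and PDGFB (-0.73) and HBEGF (-1.01) fell. In line 79, FGF2 (0.67), HBEGF (0.83) and CCN2 (0.73) rose, and FGF1 (-0.97), MDK (-0.67) and PTN (-0.93) fell. No gene of the list was called by limma in lines 86 and 87 or in the pooled comparison, where 5, 6 and 1 had an unadjusted P under 0.05 at a smaller fold change.

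Of the angiogenesis inhibitors, 1 rose (THBS1) and 2 fell (SERPINF1 and TIMP3) of 7 tested under the knockout label. SERPINF1 was at 1.67 TPM in both knockout controls and at 0.668 and 0.862 TPM under the label. SERPINF1 and TIMP3 passed the filter on low values there only through the controls, where they are high. Nothing is therefore read from the count under that label against the share of all genes. Of 8 tested in the overexpression comparison, 1 fell over all lines (TIMP3), 2 in line 79 (THBS1 and TIMP3), 2 in line 86 (THBS2 and TIMP3) and 3 in line 87 (THBS1, ADAMTS1 and TIMP3). The shares of all genes called in either direction were 11.8% under the knockout label, 1.93% over all lines, and 7.95%, 3.6% and 5.13% in lines 79, 86 and 87. THBS1, thrombospondin-1, rose from 203 to 574 TPM under the knockout label (1.48, adjusted P = 0.0118 by limma), fell from 196 to 96.0 TPM in line 79 (-1.02, adjusted P = 5.96e-04) and fell to 48.4 TPM in line 87 (-1.99, adjusted P = 2.29e-04). TIMP3, a metalloproteinase inhibitor that also binds KDR, was at 4.04 and 4.14 TPM in the knockout controls and at 0.0106 and 0.0132 TPM under the knockout label. In the overexpression comparison it was at 7.48 and 7.27 TPM in the controls, 0.130 and 0.0106 in line 79, 2.04 and 1.93 in line 86, and 0.106 and 0 in line 87. TIMP3 was thus lower than its controls in all 8 labelled libraries and was called in every comparison (log2 fold change -2.48 in the pooled test, unadjusted P = 7.31e-04 and adjusted P = 0.206 by limma). ADAMTS1, a protease with thrombospondin repeats, fell in line 87 (-0.69, adjusted P = 0.0022).

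**Figure D4:**
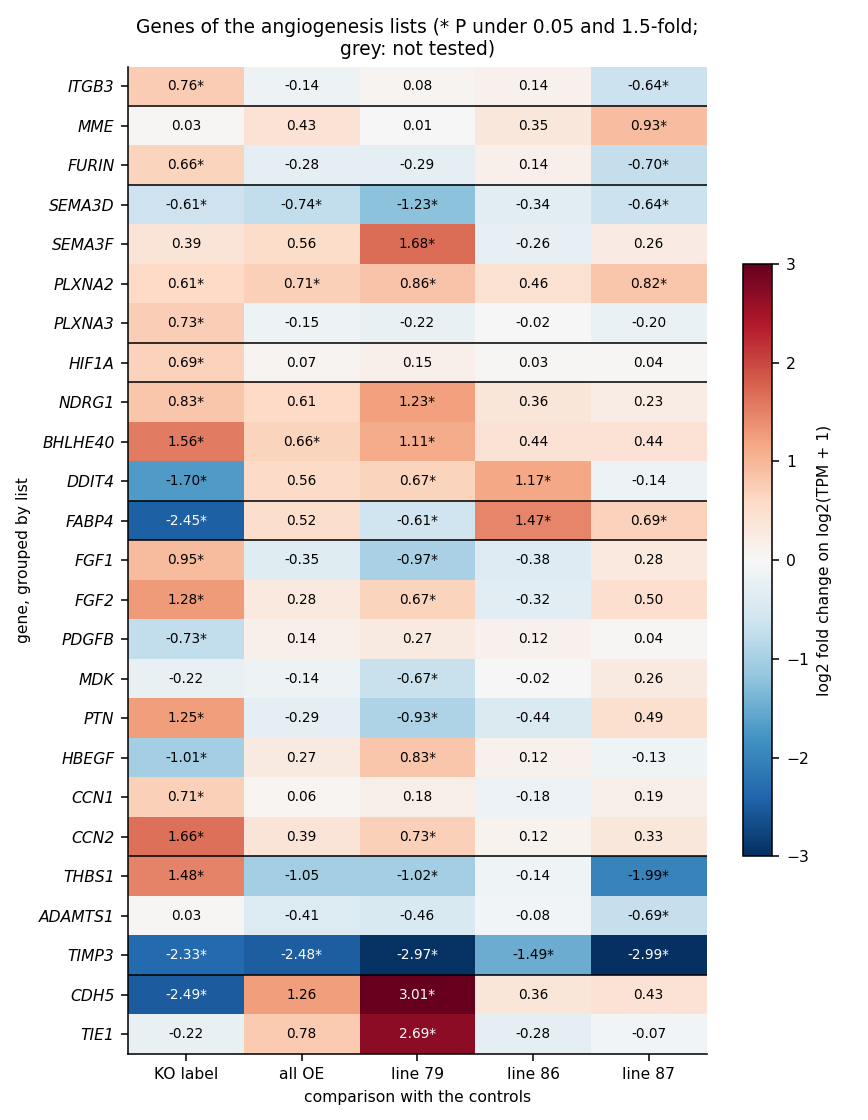
Log2 fold change on log2(TPM + 1) (colour and printed number) of the genes of the angiogenesis lists and endothelial markers that were called and reached a mean of 5 TPM, by comparison with the controls, where KO label marks the libraries labelled U11 knockout and OE overexpression. A star marks unadjusted P under 0.05 and 1.5-fold, and horizontal lines separate the lists. TIMP3 is lower in all 5 comparisons (-1.49 to -2.99), and CDH5 and TIE1 are higher in line 79 (3.01 and 2.69).

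Some endothelial markers also differed from the controls, with rises of CDH5 and TIE1 in line 79 and a fall of CDH5 under the knockout label. CDH5, the cadherin of endothelial junctions, was at 3.43 and 3.08 TPM in the overexpression controls, 34.1 and 32.2 in line 79 and between 4.17 and 5.28 in lines 86 and 87, and TIE1, a receptor kinase related to TEK, was at 21.1 and 17.8 TPM in line 79 against 2.29 and 2.05 in the controls. Summed over the 10 endothelial markers the level was 10.04 to 10.4 TPM in the controls, 56.1 to 61.5 in line 79, 12.7 to 15.0 in line 86 and 11.5 to 14.5 in line 87. The defining markers PECAM1, VWF, ERG and EMCN were at or below 0.297 TPM in all 12 libraries, so that the sum in line 79 came mainly from CDH5 and TIE1. ROBO4, a further marker of the list, was called higher over all lines and in lines 86 and 87, at no more than 2.77 TPM. Its adjusted P by limma was 0.475 over all lines, 0.225 in line 86 and above 0.05 in line 87. The controls were at 0.531 and 1.13 TPM, so ROBO4 passed the filter on low values only through the overexpression libraries. Nothing is therefore read from these calls. SOX18, also tested, was at 3.28 and 2.90 TPM in line 79 against 3.17 and 3.06 in the overexpression controls. Under the knockout label the sum was 2.82 to 3.01 TPM against 8.23 to 8.78 in the controls, and CDH5 was at 0.0316 and 0.0293 TPM against 4.85 and 4.75. The sum thus differed there mainly through CDH5, which passed the filter on low values only through the controls. TIE1 (-0.22) and SOX18 (-0.17) were not called under that label. The part of these markers in the levels of ESM1, EDN1 and ANGPTL4 was not tested. Some mesenchymal markers also differed under the knockout label. There the summed level of 5 markers was 5060 to 6082 TPM against 2444 to 2448 in the controls. The difference in the sum came mainly from FN1 (mean of 973 TPM in the controls and 3150 under the label) and VIM (1282 and 2175). CDH2, also of the list, was not called (log2 fold change -0.009). VIM and FN1 rose also with median ratio scaling (0.61 and 1.53). ZEB1 (0.59, adjusted P = 0.0484 by limma) and SPARC (0.72, unadjusted P = 0.0371, adjusted P = 0.144) were called as deposited but not with that scaling (0.45 and 0.57). In the lines, FN1 fell in line 87 (-0.86, adjusted P = 8.83e-04) and ZEB1 rose in line 86 (0.83, adjusted P = 0.0484). Of the epithelial and urothelial markers, FOXA1 fell under the knockout label (-0.89, adjusted P = 0.0342 by limma), where GATA3 rose (0.75, adjusted P = 0.0553), and GATA3 fell in line 87 (-1.12, adjusted P = 0.0158). The part of these markers in the changes of the members was likewise not tested.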

How the data were processed

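Libraries of T24 cells were sequenced as paired ends. The methods describe ribosomal RNA depletion, whereas the labels name polyA RNA. The authors trimmed reads with fastp, mapped them to hg38 with Hisat2 and used Stringtie to quantify each gene. They deposited the TPM of each gene, with its FPKM (scaled by transcript length and depth) and its coverage (mean aligned bases per position). The study used DESeq2, which needs counts and was not run.

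Groups, replicate numbers, line labels and library series (the prefix of the library name) came from the labels. The test was that of limma 3.58.1 under R 4.3.3 on log2(TPM + 1), two-sided, with a mean-variance trend, for genes that reached 1 TPM in no fewer than 2 compared libraries. Calls needed both P under 0.05 before adjustment and 1.5-fold. Line contrasts and the F test between lines (adjusted P under 0.05, 1.5-fold range) came from a fit of 8 libraries in 4 groups. The fits were tested on simulated data. TPM gives no counting interval, so precision is that of the spread between libraries, whose depth was 9.07 to 15.33 gigabases.

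The members, gene lists and tests were chosen with earlier results of these data known. All 10 members are named, list genes are named if called with a group mean of 5 TPM or more, and the 2 genes most alike are named for members called over all lines or between lines. THBS2, SERPINF1, ROBO4, SOX18, CDH2, CDH1, KRT5 and EPCAM are named outside this rule after their values were seen. Same-series libraries deviated together (correlations of 0.106 to 0.192 over 12356 genes), so the library series was used as a block in an alternative fit of the overexpression comparison. The main fits, which gave the P values printed without mention of a block, held no block. Alternatives were a pseudocount of 0.1, FPKM, median ratio scaling, other filters, no trend, adjusted P, blocks, means of lines, single lines and each library left out, and, added after seeing the data, the pooled fit without line 79. Python 3.11.15, pandas 2.3.3 and matplotlib 3.10.9 were used.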

Additional observations from a re-analysis of the deposited data

Results flagged for a closer look

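The difference between line labels was tested for each of the 10 members by the limma F test, and 4 passed. VEGFC was higher in line 87 than in line 79 by 1.003 on the log2 scale (adjusted P = 0.00116 by limma). ANGPTL4 was higher in line 79 than in line 86 by 1.246 (adjusted P = 0.00602 by limma), and EDN1 was higher in line 79 than in line 86 by 1.191 (adjusted P = 9.13e-04 by limma). NRP1 was higher in line 87 than in line 79 by 0.856 (adjusted P = 0.0186 by limma). Each line has 2 libraries, and the lines share their controls.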

How the results depend on the processing

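With each library left out in turn, the number of members called ran from 3 to 6 under the knockout label, 2 to 3 for all overexpression libraries, 4 to 6 in line 79, 2 to 3 in line 86, 2 to 2 in line 87 and 3 to 4 between lines. The 3 were found without U11 knockout replicate 2, where ANGPT1 and ANGPTL4 failed the filter. A group left with 1 library is assumed to vary like the others. With adjusted P, 1 member was called over all overexpression libraries. All 18 changes of sign in the refits were of differences that were not called. Without line 79, an alternative chosen after seeing the data, EDN1 came to -0.056 and NRP1 to 0.194 over the other lines. With a library left out the values ranged from -0.109 to 0.012 for NRP2 under the knockout label and, over all lines, from -0.081 to 0.034 for VEGFA, -0.048 to 0.156 for VEGFC, -0.107 to 0.012 for ANGPT1 and -0.192 to 0.039 for NRP1. By line they ranged from -0.008 to 0.099 for VEGFA and -0.045 to 0.28 for VEGFB in line 79, -0.037 to 0.164 for ANGPTL4 in line 86, and -0.03 to 0.08 for EDN1 and -0.025 to 0.441 for NRP1 in line 87. Of the other alternatives to a member's value, 939 were counted as the same, 12 lost the call, 3 gained it and 2 moved. For refits, the same means that direction and call were kept. For values within a library series, which had no test, it means within the SD of the overexpression libraries from the pooled value. Among those, VEGFA (0.065 within the second series, -0.027 pooled) and ANGPT1 (0.024 and -0.052) changed sign, and neither was called in the pooled test. With the replicate number as a replicate block the 6 members stayed called under the knockout label, while the adjusted P was 0.0428 for VEGFC and ANGPTL4, 0.065 for EDN1, 0.078 for ANGPT1, 0.0921 for NRP1 and 0.145 for PGF. The numbers need not pair those libraries, since same-numbered libraries did not deviate together (correlation 0.016). With the library series as the block, 2 members were called over all lines, 6, 2 and 2 in lines 79, 86 and 87, and 4 between lines, the same members as without it. Of list counts, 114 stayed within 1.5 times and 6 did not.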
